A study of Mus musculus with 2 samples.

Results

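The 7 miRNAs described here, mmu-miR-463, mmu-miR-470, mmu-miR-471, mmu-miR-741, mmu-miR-742, mmu-miR-743a and mmu-miR-743b, come from a testis-expressed cluster on the mouse X chromosome. The prefix mmu, for mouse, is left out from here on. They were found by name among the entries for known mouse miRNA, as mature or hairpin entries with either arm. The rule itself holds no measured value, but the members were chosen with earlier results of these data known. All 7 were listed with both arms, which gave 14 entries of the 525 entries for 409 known miRNAs. No member shared its entry with another miRNA. The study sequenced the small RNA of extracellular vesicles (EVs) from the testes of adult C57/BL6 mice, aged 8 weeks according to the methods, in 2 libraries of 1 condition. Both libraries were made after treatment of the EVs with proteinase K and then RNase A, enzymes that digest protein and RNA outside the vesicle membrane. In the paper, detergent added to these enzymes lowered let-7b but not miR-34a. Survival of the treatment therefore does not by itself place a miRNA inside the membrane, and the members were not among the miRNAs tested this way. The EVs were taken from the fluid around dissociated seminiferous tubules, so they may come from any cell type of the testis. The sources used here do not tell separate animals from repeat libraries of 1 EV preparation, and the spread given below as SD may therefore be technical. Groups of mice were not compared, so no test was possible.

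A miRNA is cut from a hairpin precursor by the enzymes Drosha and Dicer, which leaves a short duplex of a 5p arm and a 3p arm. One arm is usually kept by an Argonaute protein, and its seed, bases 2 to 8 from the 5′ end, pairs with target mRNAs. In mammals, the X chromosome between Slitrk2 and Fmr1 carries many miRNA genes of the miR-506 family, which change quickly in sequence and copy number between species and are expressed mainly in the testis. Many of them remain transcribed in meiotic spermatocytes, when most of the X chromosome is silenced.

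In the RefSeq annotation of GRCm38.p6, the 7 hairpins lie on the minus strand within chrX:66776757-66814025, an interval of 37269 bp. In the direction of this strand their order is Mir470, Mir463, Mir741, Mir471, Mir742, Mir743b and Mir743, the last of which gives miR-743a. In GENCODE M21, which is of the same build, none of the 7 hairpins overlaps another gene, coding or noncoding, so they are intergenic miRNA genes. The interval also holds 6 other miRNA genes, for miR-871, miR-881, miR-878, miR-880, miR-883b and miR-883a, and the processed pseudogene Gm14681. Slitrk2, which encodes a neuronal transmembrane protein, lies 115 kb from the interval on the side of Mir743. Gm1140, the next protein-coding gene on the side of Mir470, lies 869 kb away, and Fmr1 lies beyond it.

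The more abundant arm of each of the 7 miRNAs is shown first, since these sequences carried nearly all of the counts. Sequences are mature miRNAs from RefSeq (GRCm38.p6), 5′ to 3′, with the seed in capitals.
miR-470-5p: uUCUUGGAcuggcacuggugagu
miR-463-5p: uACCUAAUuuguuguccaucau
miR-741-3p: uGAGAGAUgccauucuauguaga
miR-471-3p: uGAAAGGUgccauacuauguau
miR-742-3p: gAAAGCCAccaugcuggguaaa
miR-743a-3p: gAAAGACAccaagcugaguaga
miR-743b-3p: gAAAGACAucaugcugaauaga

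Among these 7 arms, miR-743a-3p and miR-743b-3p have the same seed and the others each have their own. Outside the seed the pair differs by the substitutions C9U, A12U and G18A, given as the base of miR-743a-3p, the position from the 5′ end and the base of miR-743b-3p. These 3 differences in 22 bases make it the closest pair of members, with 86.4% identity. The next closest were miR-471-3p with miR-741-3p and miR-742-3p with miR-743a-3p, each at 81.8% identity, with 2 and 1 differences in the seed. No arm of miR-463, miR-470, miR-471, miR-741 or miR-742 shared its seed with any of the other mature mouse miRNAs of the table, which holds 1679.

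Some of the minor arms also shared sequence at their 5′ end, and these are shown with the X-linked neighbour miR-871-5p.
miR-743a-5p: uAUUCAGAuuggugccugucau
miR-871-5p: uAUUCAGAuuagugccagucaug
miR-471-5p: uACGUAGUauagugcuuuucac
miR-741-5p: uACGUAGAuugguaccuaucaug

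The first pair has a common seed. The second pair shares bases 2 to 7 but not base 8. Of the 14 arms, 10 begin with U, 3 with G and 1 with A, and over all 1679 mature miRNAs 40.9% begin with U.

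The cluster was abundant in testicular EVs, and nearly all of that abundance was miR-470-5p. Library 1 held 99170 counts of the 14 arms and library 2 held 79247. Levels are counts per 1000000 listed counts (CPM). Arms were compared without a correction for length, on the assumption that a tag spans a whole mature miRNA. Tag lengths were not examined. Whether different sequences enter a library equally well was not tested, so levels and arm shares are those of tags, not of molecules. The summed level of the cluster was 4514 CPM in library 1 (95% interval 4486 to 4542) and 3192 CPM in library 2 (3170 to 3214), and averaged 3853 ± 935 CPM (SD, n = 2). These intervals, like all intervals of shares given here, are exact (Clopper-Pearson) and take in counting error alone, since copies made by PCR are not independent molecules. The libraries differed by more than that error, since the intervals do not overlap. As a share of known miRNA counts the cluster was steadier, at 14.4% (14.3 to 14.5) in library 1 and 14.2% (14.1 to 14.3) in library 2. Whether a level reflects more EVs that carry a miRNA or more copies per EV cannot be told apart in such data.

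The arm miR-470-5p was counted 89663 times in library 1 and 70576 times in library 2. It made up 90.4% of the cluster in library 1 and 89.1% in library 2, and 12.8% ± 0.275 of known miRNA counts (SD, n = 2). In mouse embryonic stem cells miR-470 is known to target mRNAs of pluripotency factors such as Nanog. Among known miRNA entries it ranked 1 in library 1 and 2 in library 2, where only let-7c-5p was higher. By mean level the next entries below it were let-7c-5p, miR-34a-5p and let-7b-5p, and its CPM of 4081 and 2842 in libraries 1 and 2 did not overlap the 2280 and 1494 CPM of miR-34a-5p. Its range did overlap that of let-7c-5p, with 3512 and 2882 CPM, so the order of these entries differed between the libraries. The other arm of the same hairpin, miR-470-3p, was counted 347 and 313 times.

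The hairpin Mir470, chrX:66813951-66814025 on the minus strand (GRCm38.p6), is shown because a single arm of it gave most of the cluster, with both mature arms in capitals.
Mir470: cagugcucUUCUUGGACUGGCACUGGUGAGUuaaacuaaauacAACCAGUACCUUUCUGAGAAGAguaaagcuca

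**Figure D1:**
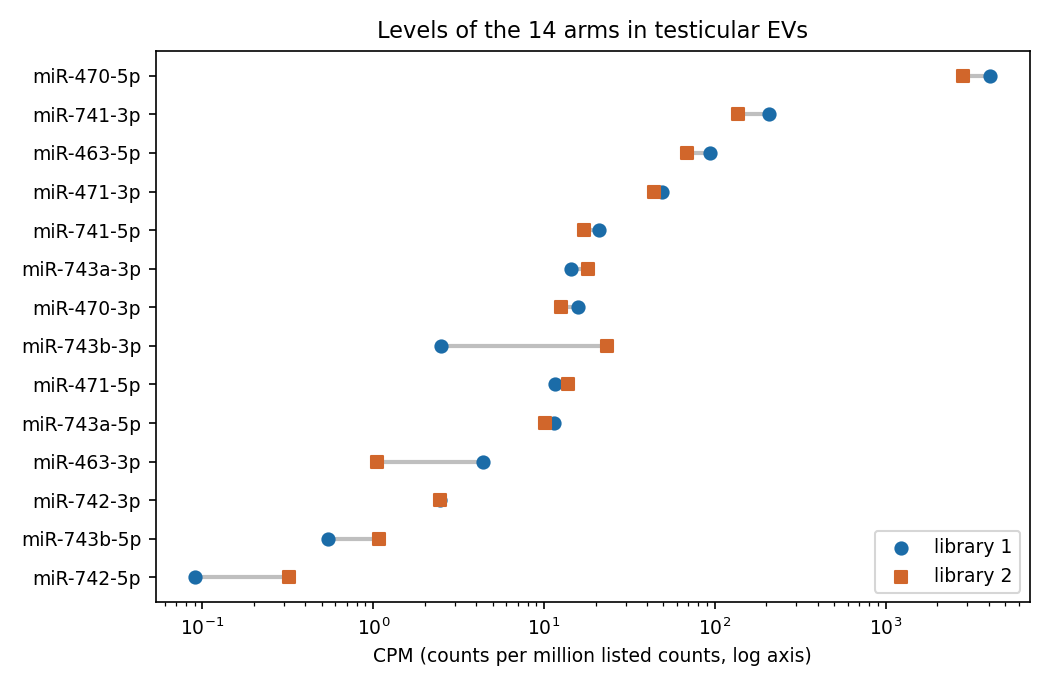
Level of each of the 14 arms in library 1 (circles) and library 2 (squares), in CPM on a log axis, in order of mean level. The arm miR-470-5p stands above all others at 4081 and 2842 CPM, and miR-743b-3p has the widest gap between the libraries, at 2.50 and 23.3 CPM.

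The other 13 arms together reached 433 CPM in library 1 and 349 CPM in library 2, on average 391 ± 59.0 CPM (SD, n = 2). Of these, 3 stood apart from each other and from the rest. The highest, miR-741-3p, had 4530 and 3396 counts in libraries 1 and 2, or 171 ± 49.1 CPM, and ranked 30 of the 525 known entries by mean level. Next came miR-463-5p with 2054 and 1704 counts, or 81.1 ± 17.6 CPM, at rank 55. The arm miR-471-3p had 1076 and 1089 counts, or 46.4 ± 3.62 CPM, at rank 70. The values of these arms in the 2 libraries did not overlap with those of the next arm above or below them.

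A middle group of 6 arms, from miR-741-5p at 19.0 ± 2.64 CPM to miR-743a-5p at 10.8 ± 0.902 CPM, was less clearly ordered. In between were miR-743a-3p at 16.2 ± 2.59, miR-470-3p at 14.2 ± 2.25, miR-743b-3p at 12.9 ± 14.7 and miR-471-5p at 12.8 ± 1.59 CPM. Each of these overlapped its neighbour in mean level, other than miR-471-5p and miR-743a-5p, so their order is not shown by 2 libraries. In mouse neuronal cells miR-743a is known to target the mRNA of the mitochondrial malate dehydrogenase Mdh2, and in mouse Sertoli cells miR-471-5p is known to act on genes of autophagy.

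The lowest 4 arms had few counts in both libraries. They were miR-463-3p with 97 and 26 counts in libraries 1 and 2, miR-742-3p with 54 and 61, miR-743b-5p with 12 and 27, and miR-742-5p with 2 and 8. A single count corresponds to 0.0455 CPM in library 1 and 0.0403 CPM in library 2. Only miR-742-5p missed a minimum of 10 counts in both libraries. Its ratio of library 2 over library 1 was 3.54 with a counting interval of 0.706 to 34.2, so no difference was detectable at this depth.

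The same arm of each miRNA was the more abundant one in both libraries. The 5p arm was higher for miR-470 and miR-463, and the 3p arm for miR-741, miR-471, miR-742, miR-743a and miR-743b. Among the 82 known miRNAs with both arms at a mean count of at least 10, the 5p arm was higher in both libraries in 53.7% and the 3p arm in 36.6%. Of the members, 6 met that minimum, with 2 of them on the 5p side and 4 on the 3p side. The share of the major arm had a median of 89.3% over the 82 miRNAs. On that scale miR-470 was among the most one-sided, at rank 3, and miR-743a among the most even, at rank 77. The arms miR-463-3p, miR-471-3p and miR-743a-5p were listed as type hairpin and their opposite arms as type mature. What these types mean was not found, so the arm shares of miR-463, miR-471 and miR-743a compare unlike types of entry.

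For miR-470 the 5p arm held 99.61% of the counts of both arms in library 1 (95% interval 99.57 to 99.65) and 99.56% in library 2 (99.51 to 99.61). For miR-463 it held 95.5% (94.5 to 96.3) and 98.5% (97.8 to 99.02) in libraries 1 and 2. The 3p arm of miR-741 held 90.8% (89.98 to 91.6) and 88.9% (87.8 to 89.9). The share moved by 3.01 percentage points for miR-463, close to the median of 2.97 points over the 82 miRNAs, and by less than that for miR-470 and miR-741. Only for miR-470 did the intervals of the libraries overlap.

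The 3p arm of miR-471 held 80.8% (78.6 to 82.9) in library 1 and 75.9% (73.6 to 78.1) in library 2. For miR-742 the 3p arm held 96.4% (87.7 to 99.6) and 88.4% (78.4 to 94.9), and these wide intervals overlap. The 3p arm of miR-743a held 55.7% (51.5 to 59.8) in library 1 and 63.9% (60.3 to 67.5) in library 2, and the 3p arm of miR-743b held 82.1% (70.8 to 90.4) and 95.5% (93.6 to 97.0). The intervals of the libraries did not overlap for miR-471, miR-743a or miR-743b. Both arms of miR-743a were within 2-fold of each other in each library, while the paralog miR-743b was mostly 3p.

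**Figure D2:**
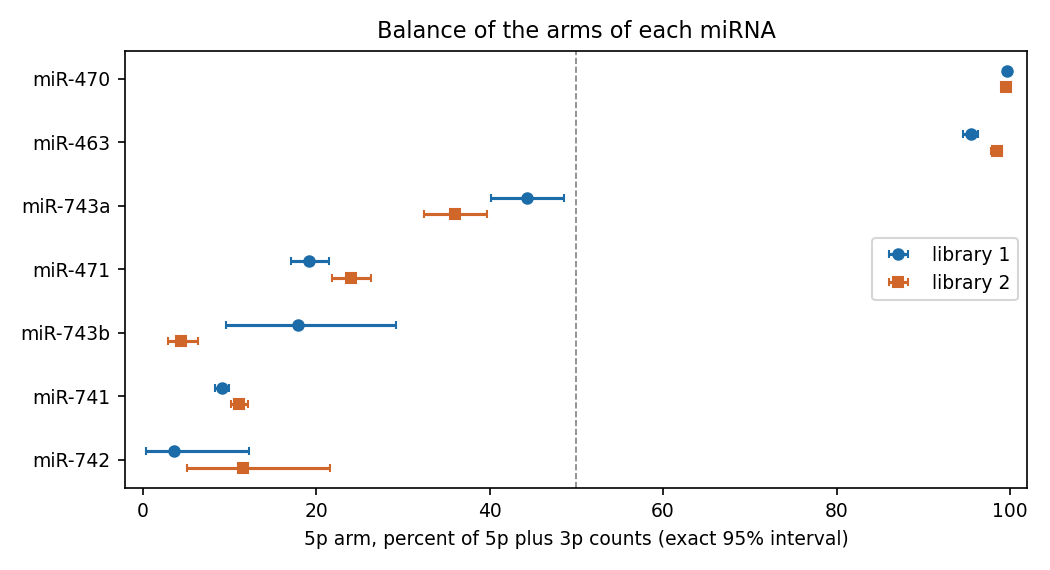
Share of the 5p arm in the counts of both arms of each miRNA, in percent, with exact 95% intervals for library 1 (circles) and library 2 (squares), and a dashed line at 50%. The points of miR-470 and miR-463 lie above 95% and those of the other 5 miRNAs below 50% in both libraries.

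Most arms of the cluster stayed within 2-fold between the libraries. At a mean count of at least 10, which 13 arms passed, 2 arms were over 2-fold apart in CPM, against 35.1% of 433 known miRNA entries and 33.7% of all 23876 entries. The arm miR-743b-3p was higher in library 2 and miR-463-3p was lower, while 6.47% of known entries were over 2-fold higher and 28.6% over 2-fold lower in library 2. Of the 13 arms, 9 were lower in library 2 by any amount, against 77.8% of known entries. The median log2 ratio of library 2 over library 1 was -0.17 for the 13 arms and -0.45 for known miRNA entries, and it was 0.20 over all entries. The negative sign of the members' median holds for the listed counts, the deposited TPM values and the TMM and DESeq2 scalings, and it turned to 0.31 when CPM were taken over known miRNA counts alone. TMM moved the median over all entries to 0.01 and that of the members to -0.36, a shift that is the same for every entry by construction.

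All 4 members with a mean count of at least 1000 were closer than 2-fold, as were all but 12.3% of known entries in that range. Their log2 ratios were -0.52 for miR-470-5p, -0.59 for miR-741-3p, -0.45 for miR-463-5p and -0.16 for miR-471-3p. Counting intervals of the ratio lay below 1 for 7 of the 14 arms, above 1 for 3 and held 1 for 4, which says only that counting error is smaller than most of these gaps. By likeness of the ratio over the 2 libraries, the entries closest to miR-470-5p among the 72 others of this abundance were miR-181a-5p, miR-143-3p and let-7a-5p. Each of their log2 ratios rounds to -0.52. A match over 2 libraries is a weak measure of likeness.

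The arm miR-743b-3p was counted 55 times in library 1 and 578 times in library 2, or 2.50 and 23.3 CPM. It ranked 264 among the known entries in library 1 and 91 in library 2. The ratio of library 2 over library 1 was 9.30, with a counting interval of 7.04 to 12.5. Its log2 ratio of 3.22 was the third highest of the 433 known entries, after miR-491-5p with 1 and 29 counts and miR-669f-5p with 22 and 435. The next below was miR-465a-5p of the X-linked miR-465 family, with 6 and 62 counts and a log2 ratio of 3.19. The arm miR-743b-3p was 1 of 6 members with a mean count of 100 to under 1000, and 24.1% of known entries in this range were over 2-fold apart.

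Its paralog miR-743a-3p, which has the same seed, was counted 315 times in library 1 and 447 times in library 2. The level of miR-743a-3p was not lower where that of miR-743b-3p was higher. Of the counts of both 3p arms, miR-743b-3p held 14.9% in library 1 (95% interval 11.4 to 18.9) and 56.4% in library 2 (53.3 to 59.5), so the order of the paralogs turned between the libraries. In sum the arms with their seed gave 16.8 CPM in library 1 and 41.3 CPM in library 2. The opposite arm miR-743b-5p had 12 and 27 counts, a log2 ratio of 0.99 that lay just inside 2-fold. The sources used here do not give the number of mismatches allowed between a tag and a miRNA, and a split of tags between these near-identical arms was not tested.

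The hairpins of the paralogs, chrX:66776757-66776818 for Mir743 and chrX:66777256-66777332 for Mir743b on the minus strand (GRCm38.p6), are shown for this comparison with the mature arms in capitals.
Mir743: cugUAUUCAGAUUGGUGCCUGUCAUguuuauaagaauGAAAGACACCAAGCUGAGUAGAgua
Mir743b: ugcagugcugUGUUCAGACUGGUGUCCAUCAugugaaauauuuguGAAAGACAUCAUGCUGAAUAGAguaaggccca

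In the other direction, miR-463-3p fell to 26 counts in library 2, against 97 in library 1, a log2 ratio of -2.08. It was 1 of 3 members with a mean count of 10 to under 100, a range in which 48.9% of known entries were over 2-fold apart. The opposite arm miR-463-5p had 2054 and 1704 counts, with a log2 ratio of -0.45. Arms of 1 hairpin therefore did not move together in the libraries for miR-463 and miR-743b, with log2 ratios 1.63 and 2.22 apart. Gaps over 1 were found in 47.6% of the 82 known miRNAs with both arms, and the median gap was 0.95. The other 4 members that met the minimum had gaps of 0.20 to 0.50.

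**Figure D3:**
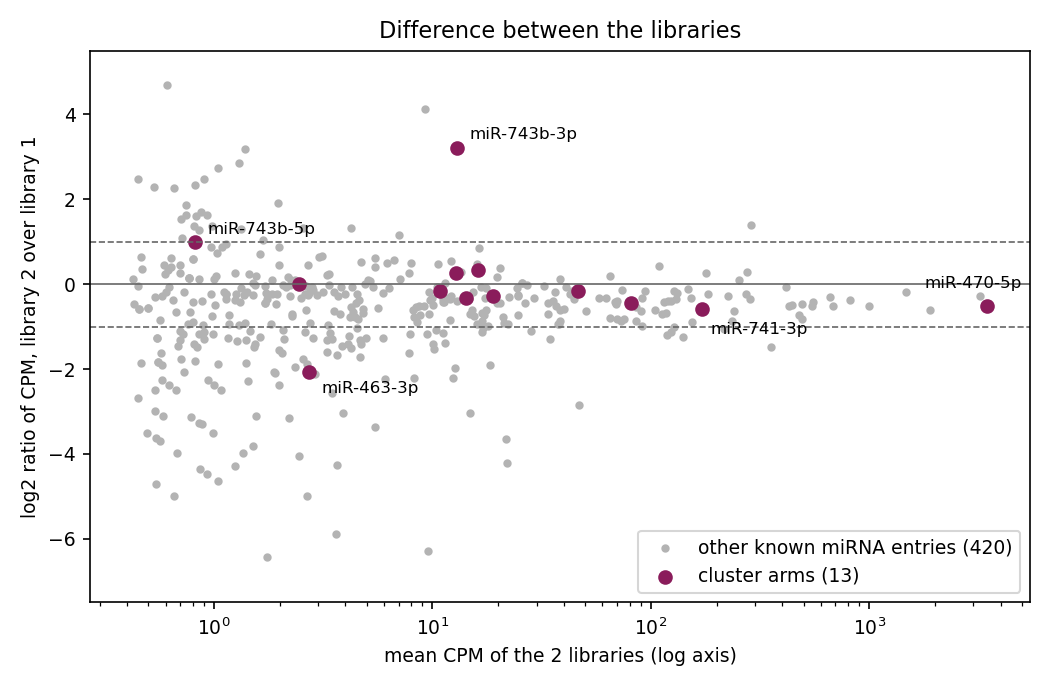
Log2 ratio of CPM, library 2 over library 1, against the mean CPM on a log axis for known miRNA entries of mean count 10 or more, with the 13 cluster arms as large dots and dashed lines at a ratio of 2-fold. All cluster arms but miR-743b-3p and miR-463-3p lie between the dashed lines, and 1 other entry, let-7k at -14.18, lies below the axis.

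Along the X chromosome, the summed level of both arms followed no steady order. Counted from the start of the Mir470 hairpin in the direction of its strand, miR-470 came first, with 4097 and 2855 CPM in libraries 1 and 2. The next member, miR-463, lies 14.7 kb further on and had 83.8 ± 20.0 CPM (SD, n = 2). At 17.2 kb miR-741 had 190 ± 51.7 CPM, and at 21.4 kb miR-471 had 59.2 ± 2.03 CPM. The last 3 lie close together, with miR-742 at 33.6 kb and 2.66 ± 0.163 CPM, miR-743b at 36.7 kb and 13.7 ± 15.1 CPM, and miR-743a at 37.2 kb and 27.0 ± 1.69 CPM. The direct neighbours miR-743b and miR-743a had 3.05 and 25.8 CPM in library 1 and 24.4 and 28.2 CPM in library 2. Of the predicted entries of the study, none of 168 predicted miRNAs and none of the 6587 predicted piRNAs with a deposited interval fell in the interval of the cluster, with their positions read as GRCm38.

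**Figure D4:**
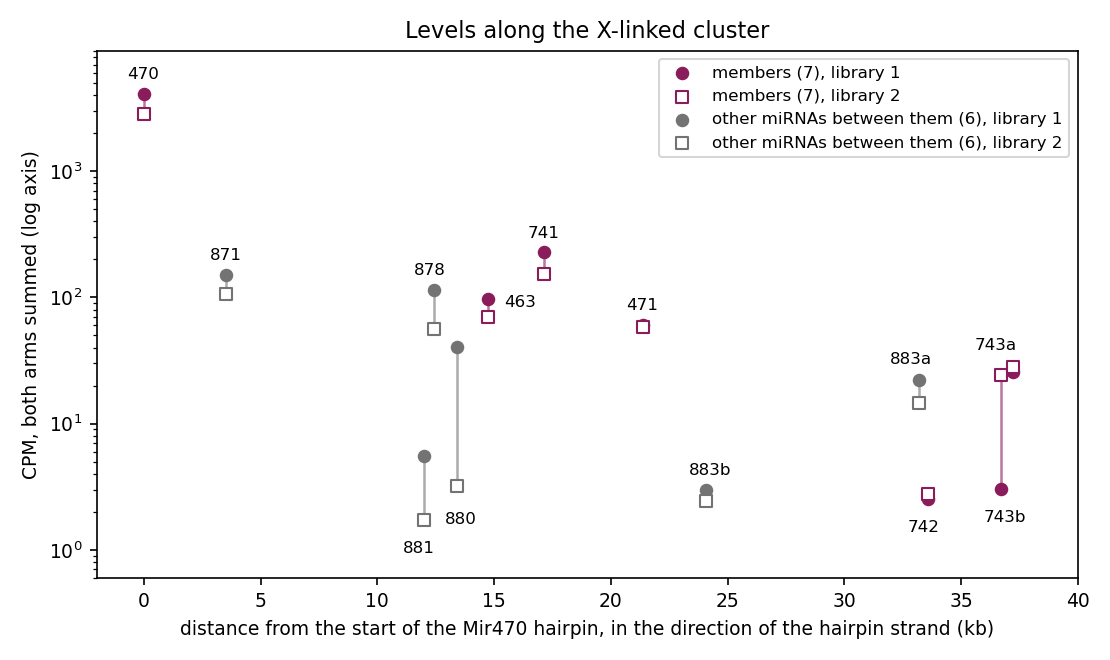
Summed CPM of both arms on a log axis against the distance in kb from the start of the Mir470 hairpin, for the 7 members and the 6 other miRNAs between them, in library 1 (filled circles) and library 2 (open squares). The first hairpin is the highest, miR-742 and miR-883b are among the lowest, and hairpins next to each other often differ widely.

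Compared with the other X-linked testis miRNAs, the members were the most abundant group, through miR-470-5p. The members had 3.79 ± 0.363 times the counts of miR-465a, miR-465b and miR-465c (SD, n = 2), whose hairpins lie upstream of Mir470 on the same strand. That family had 1117 and 904 CPM in libraries 1 and 2, led by the entry shared by the 3p arms of all 3 at 661 ± 98.6 CPM and by miR-465c-5p at 225 ± 29.8 CPM (SD, n = 2). The members had 15.3 ± 2.79 times the counts of the 6 miRNAs between their hairpins, which had 337 and 184 CPM and were led by miR-871-5p at 113 ± 38.6 CPM and miR-878-5p at 73.2 ± 30.4 CPM. They had 19.2 ± 3.84 times the counts of miR-201 and miR-547, which lie further upstream, beyond Gm1140, and were led by miR-201-5p at 142 and 122 CPM and miR-547-3p at 61.0 and 69.2 CPM in libraries 1 and 2. No entry for miR-509 was analysed here.

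Without miR-470-5p, the members had 433 and 349 CPM in libraries 1 and 2, below the miR-465 family and above the 6 miRNAs between them in each library. The log2 ratio of library 2 over library 1 was -0.50 for the sum of the members, -0.30 for the miR-465 family, -0.87 for the 6 miRNAs and -0.09 for miR-201 with miR-547. Entries over 2-fold apart were 2 of 13 in the members, 1 of 4 in the miR-465 family, 3 of 9 in the 6 miRNAs and 0 of 4 in miR-201 with miR-547, next to the 35.1% of known entries. These differences between groups of miRNAs were not tested.

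As a check of the tissue, both miRNAs listed for male germ cells, miR-34c and miR-449a, were present, with 830 and 876 CPM in sum in libraries 1 and 2. This sum hides moves in opposite directions, since miR-34c-3p had 158 and 416 CPM, miR-449a-5p 642 and 451 CPM and miR-34c-5p 29.0 and 7.73 CPM. The sum was thus close between the libraries while 2 of its 3 entries of mean count 10 or more were over 2-fold apart. The gonadal somatic miR-202 had 414 and 373 CPM in sum. Its arms also moved in opposite directions, with miR-202-5p at 248 and 301 CPM and miR-202-3p at 166 and 71.9 CPM. Of these 2 entries, 1 was over 2-fold apart.

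Markers of other cells were also detected, and the sums of several of them were lower in library 2, as the sum of the cluster was, with its log2 ratio of -0.50. Known miRNA as a whole were lower there, at 3.14% of listed counts in library 1 and 2.25% in library 2. The median known entry had a log2 ratio of -0.45, and over known miRNA counts the cluster had one of -0.02. Red blood cell markers had 650 and 381 CPM in libraries 1 and 2, a log2 ratio of -0.77, and leukocyte markers had 114 and 67.3 CPM, a log2 ratio of -0.76. Most of the red blood cell sum was miR-451a, with 629 and 357 CPM. The entry shared by miR-486a-5p and miR-486b-5p went the other way, with 17.7 and 23.0 CPM. Of the leukocyte entries, miR-150-5p, miR-223-3p and miR-142a-5p were lower in library 2. The entries miR-142a-3p, with 45 and 57 counts, and miR-223-5p, with 14 and 19, were higher. Markers of smooth muscle and fibroblasts had 585 and 424 CPM, a log2 ratio of -0.46, and the liver marker miR-122 had 8.37 and 3.50 CPM, a log2 ratio of -1.26. Germ cell markers had a log2 ratio of 0.08, and those of striated muscle, with 7.69 and 7.65 CPM, one of -0.01. All miRNAs of these lists were found. The part of these cells in the levels of the cluster was not tested.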

How the data were processed

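Small RNA of testicular EVs was measured in 2 libraries on the BGISEQ-500 platform. Per the methods, the authors used Bowtie2 and cmsearch to assign clean tags, each to 1 class with miRBase taking priority. For versions, the mismatch limit, the genome build and what the entry types mature (11 members' arms) and hairpin (3) mean, no statement was found, so they count as not given in the sources used here. Each listed entry has a count in both libraries. The authors deposited whole-number tag counts per entry. The deposited TPM values carry no length correction and are RPM of a total of tags larger than the sum of the listed counts. The listed counts summed to 21970654 in library 1 and 24829208 in library 2, of which 689004 and 559053 were known miRNA.

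CPM over the listed counts, exact Clopper-Pearson intervals and conditional binomial intervals of ratios were computed with SciPy 1.17.1, pandas 2.3.3 and NumPy 2.4.6. The ratio step was run on simulated counts with counting error alone. That run held no further spread between replicates, so it does not show how the step behaves under such spread. Alternatives used TMM of edgeR 4.0.16, DESeq2 1.42.0 size factors, the deposited TPM values, known miRNA counts as the total, count minimums, mature entries alone, pooled counts and each library left out. Figures were drawn with matplotlib 3.10.9. All 14 arms are named, with up to 2 entries per comparison group, the entries next to the highest member and the 3 of most similar ratio. Beyond that rule, miR-491-5p, miR-669f-5p, let-7k, miR-880-3p, miR-883a-5p, miR-34c, miR-449a, miR-122 and the other arms of miR-871 and miR-878 were named after their values were seen. The same holds for miR-202, miR-451a, miR-486a, miR-486b, miR-142a, miR-150 and miR-223, and for miR-465a-5p and the values of miR-881. The members and lists were chosen with earlier results of these data known. All 14 mature sequences were matched in RefSeq.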

Additional observations from a re-analysis of the deposited data

How the results depend on the processing

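No paired analysis was possible because the 2 libraries belong to 1 condition. With both libraries kept, alternatives gave 95 values. Of these, 72 stayed within 1 SD of the reported value, within 1.5 times for counts of entries, or within a small fixed difference for the median log2 ratio. Another 22 moved beyond these bounds and 1 changed sign. The 22 include the levels of the 14 arms over known miRNA counts, which is a change of unit. The 72 include values that stay within these bounds by construction. Such values are the ratios between groups under each scaling, the pooled arm balances and the cluster without shared entries, of which it has none. For this reason 72 of 95 is not a measure of robustness. All 50 values from a single library also stayed within 1 SD by construction. The level of the cluster from a single library was 3192 to 4514 CPM. The level of the cluster was 142842 per 1000000 known miRNA counts, which is a change of unit, and 391 CPM without its highest entry. Its log2 ratio of library 2 over library 1 was -0.02 over known miRNA counts, against -0.50 over listed counts. The arms over 2-fold apart were 1 at a mean count of at least 100, since miR-463-3p fell out, and 3 over known miRNA counts and with the deposited TPM values, against 2. The median log2 ratio of the members turned to 0.31 over known miRNA counts. Ratios between groups and the balance of arms are the same under every scaling by construction. Depth limits miR-742-5p and miR-743b-5p.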

Other observations

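Some of the 6 miRNAs between the member hairpins differed between the libraries in both directions. The arm miR-880-3p was counted 882 times in library 1 and 79 times in library 2, and miR-878-3p 451 and 110 times, while miR-871-3p was higher in library 2 with 257 and 521. The 5p arm held 92.3% of miR-871 counts in library 1 and 80.3% in library 2, and 82.2% and 92.1% of miR-878 counts. The arm miR-883a-5p had 466 and 345 counts. Over these miRNAs, 3 of 9 entries of mean count 10 or more were over 2-fold apart, close to the 35.1% of known entries. They were miR-880-3p, miR-878-3p and the entry for miR-881, with 5.55 and 1.73 CPM in libraries 1 and 2, all lower in library 2. The rise of miR-871-3p stayed within 2-fold, at a log2 ratio of 0.84. These values rest on 2 libraries and no explanation for them was tested.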
